A study of Mus musculus with 15 samples.

Results

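The genes described are 10 that encode the factors which license and open replication origins: the 6 subunits of the MCM2-7 helicase (Mcm2, Mcm3, Mcm4, Mcm5, Mcm6 and Mcm7), its loaders Cdc6 and Cdt1, and the activation factors Mcm10 and Gins2. They were taken by name from the 55357 genes counted in each of 15 mouse cornea libraries, and they were chosen by their fold changes between genotypes and ages in an earlier look at the same libraries. Their levels and fold changes are therefore a description, and nothing is concluded from how many of them passed a threshold. All 10 passed the filter on low counts, with 54 to 1023 reads per gene and library. The libraries were total RNA of cornea from OPA1+/- mice at 3 months (n = 4), OPA1+/+ mice at 3 months (n = 4), OPA1+/- mice at 6 months (n = 4) and OPA1+/+ mice at 6 months (n = 3). Opa1 encodes a dynamin-like GTPase needed to fuse inner mitochondrial membranes, and OPA1+/- animals are heterozygous for it. The labels name no other allele and no treatment, and they do not give sex, litter, animals per library or time of day.

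Before S phase, the origin recognition complex, Cdc6 and Cdt1 load pairs of MCM2-7 rings onto DNA in an inactive form. At the start of S phase, kinases recruit Cdc45 and the GINS complex, of which Gins2 is a subunit, to each ring, and Mcm10 takes part in turning this assembly into the moving helicase. The genes are classical E2F targets transcribed around the G1/S transition, whereas most genes of spindle and kinetochore are transcribed later, in G2 and mitosis. In the cornea, dividing cells lie in the basal layer of the epithelium and in the limbus.

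Promoter sequences are shown because the licensing genes and the mitotic markers differ in short motifs there. Promoters came from RefSeq on GRCm38.p6, as windows from 250 bases before to 50 bases after each annotated start. They were in the table used for 8 of the 10 genes, which leaves out Mcm4 and Gins2. E2F-type letters (TTTCCCGC, TTTGGCGC, TTTCGCGC or TTTGCCGC, either strand) were found in 6 of the 8 (75%), in Mcm3, Mcm5, Mcm6, Mcm7, Cdc6 and Cdt1 but not in Mcm2 or Mcm10. The same letters were in 6 of 60 mitotic markers (10%) and in 4.69% of 10693 tested genes with a window. Letters of the cell cycle homology region, an element of G2/M promoters (TTTGAA or TTCGAA, either strand), were in 2 of the 8 licensing genes (Mcm2 and Mcm7), in 46 of 60 mitotic markers (76.7%) and in 16.4% of tested genes. Below are the 250 bases before the start of Mcm5 (chr8:75109259-75109508, plus strand), Mcm6 (chr1:128359706-128359955, minus strand) and Cdc6 (chr11:98907901-98908150, plus strand), with E2F-type letters in capitals. The same bases of Kif11 (chr19:37376132-37376381, plus strand), a mitotic kinesin described further on, follow with the cell cycle homology letters in capitals.
Mcm5: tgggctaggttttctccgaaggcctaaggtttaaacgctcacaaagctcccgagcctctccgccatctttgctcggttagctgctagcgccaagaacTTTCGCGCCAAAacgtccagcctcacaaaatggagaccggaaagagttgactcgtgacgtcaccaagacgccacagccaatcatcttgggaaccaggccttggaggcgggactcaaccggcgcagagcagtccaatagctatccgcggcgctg
Mcm6: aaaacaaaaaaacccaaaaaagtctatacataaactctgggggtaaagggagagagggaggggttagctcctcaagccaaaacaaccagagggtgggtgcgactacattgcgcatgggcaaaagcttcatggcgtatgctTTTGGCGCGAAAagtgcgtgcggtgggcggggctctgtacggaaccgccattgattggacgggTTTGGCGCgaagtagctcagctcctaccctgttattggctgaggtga
Cdc6: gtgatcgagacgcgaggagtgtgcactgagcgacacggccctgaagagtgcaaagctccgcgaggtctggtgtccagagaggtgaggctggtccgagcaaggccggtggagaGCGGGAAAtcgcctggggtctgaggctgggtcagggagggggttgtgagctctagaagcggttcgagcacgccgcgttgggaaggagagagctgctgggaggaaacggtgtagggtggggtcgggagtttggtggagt
Kif11: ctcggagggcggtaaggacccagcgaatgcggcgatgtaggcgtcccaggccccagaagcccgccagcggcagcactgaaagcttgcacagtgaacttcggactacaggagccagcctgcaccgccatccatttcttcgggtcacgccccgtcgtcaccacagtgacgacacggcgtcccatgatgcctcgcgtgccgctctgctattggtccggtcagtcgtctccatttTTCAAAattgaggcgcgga
In Mcm5 a pair of matches on opposite strands overlapped, the first of them starting 153 bases before the start. Mcm6 held such an overlapping pair 110 bases before the start and a separate match 47 bases before it. Cdc6 had a single match 138 bases before the start, and the Kif11 match lay 19 bases before the start. A match of letters describes the window and does not show that a factor binds there.

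Libraries held 11673240 to 18194946 counts. Opa1 was lower in OPA1+/- libraries at both ages, at 45.5 to 57.8 CPM (counts per 1000000 counts, scaled by TMM) at 3 months and 47.0 to 49.1 CPM at 6 months, against 65.2 to 70.3 CPM and 66.9 to 73.4 CPM in OPA1+/+ libraries. Krt12, the keratin that defines corneal epithelium, was at 26110 to 32910 CPM in all 15 libraries, as a cornea label requires. Xist was at 1417 to 1973 CPM and 4 Y-linked genes summed to 125 to 170 CPM in every library, so each library held RNA of both sexes. In 2 libraries the summed level of 12 photoreceptor genes stood apart: it was 166 CPM in OPA1+/- at 3 months, replicate 4, and 161 CPM in OPA1+/+ at 6 months, replicate 1, against 12.2 to 26.6 CPM in the rest. These are bulk samples, so a change in the number of cycling cells and a change in RNA per cycling cell cannot be told apart.

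At 6 months, all 10 licensing and helicase genes had higher means in OPA1+/- corneas than in OPA1+/+ corneas, with a median log2 fold change of 0.63 and a range of 0.27 to 0.88. The median over all 15770 tested genes was 0.00. For 8 of the 10 genes every OPA1+/- library lay above every OPA1+/+ library, which held for 5.71% of all genes tested. At 3 months the median was 0.03, 7 of the 10 fold changes were positive, and the groups overlapped for every gene, while 2.66% of all genes were separate upward and 1.95% downward. The genotype effect was not shown to differ between ages. The means that moved most between ages were those of the OPA1+/+ libraries. Their 4 libraries at 3 months split into a low pair (replicates 1 and 2) and a high pair (replicates 3 and 4), and all 3 libraries at 6 months were low. One library could thus turn the sign of the 3-month median. Dropping OPA1+/+ replicate 1 or 2 gave -0.15 or -0.12, dropping replicate 3 or 4 of that group gave 0.26 or 0.20, and dropping OPA1+/- replicate 2 gave -0.06.

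**Figure D1:**
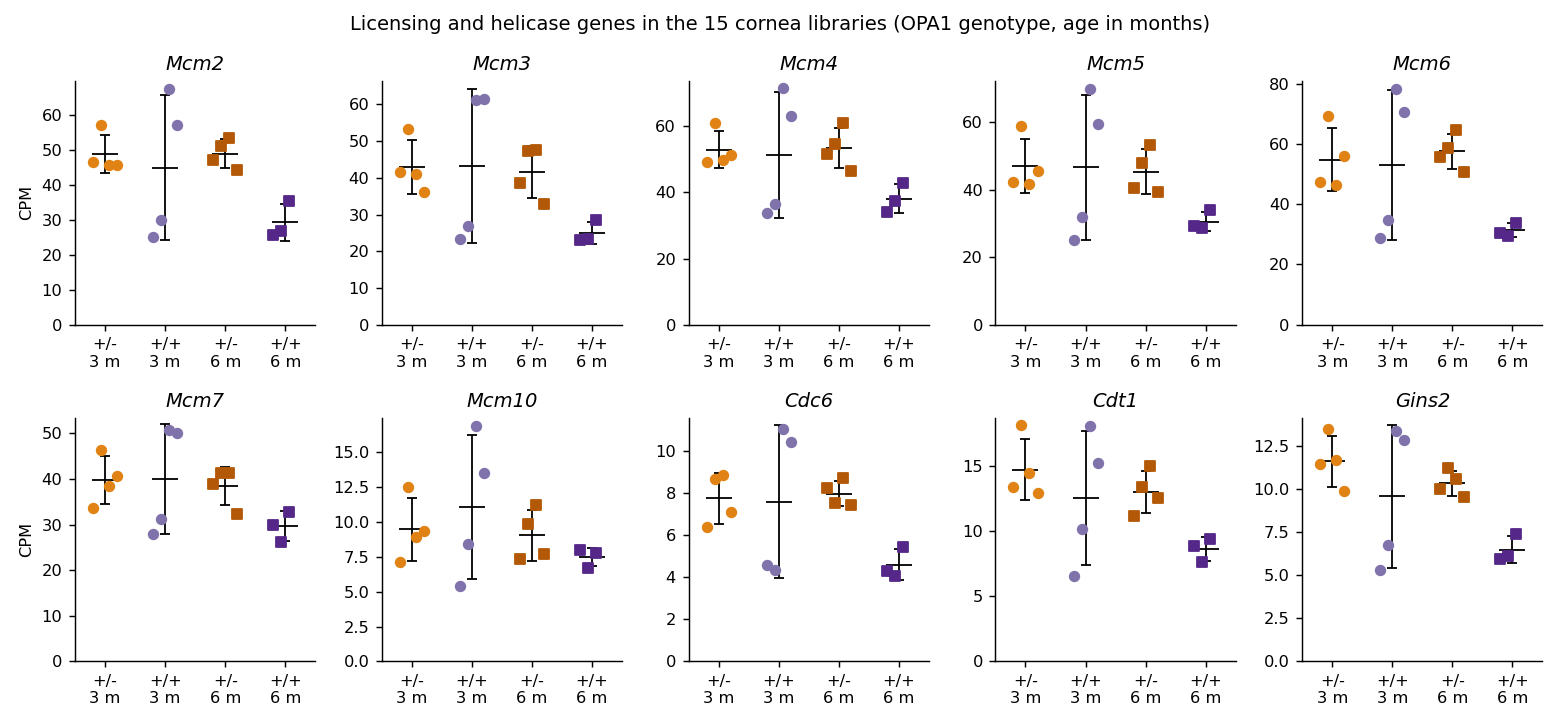
Level of each licensing and helicase gene (CPM, linear axis from 0) in each library, with OPA1+/- left of OPA1+/+ at 3 months (circles) and at 6 months (squares); bars are mean ± SD. The OPA1+/- libraries lie close together at both ages, the OPA1+/+ libraries at 3 months fall into a low and a high pair, and the 3 OPA1+/+ libraries at 6 months are low.

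Among the helicase subunits, Mcm6 had the largest difference at 6 months. Mcm6 was at 55.7, 58.7, 64.7 and 50.8 CPM in OPA1+/- libraries at 6 months, against 30.6, 29.5 and 33.9 CPM in OPA1+/+ libraries. At 3 months it was at 47.3, 69.1, 46.4 and 56.1 CPM in OPA1+/- libraries and at 28.8, 34.8, 78.4 and 70.4 CPM in OPA1+/+ libraries. The groups were separate at 6 months and overlapped at 3 months, where the OPA1+/+ libraries surrounded the OPA1+/- libraries on both sides. The log2 fold change was 0.88 ± 0.32 (error) at 6 months and 0.05 ± 0.28 at 3 months.

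Mcm2, the subunit that also chaperones histones at the fork, showed the same arrangement. It was at 47.1, 51.2, 53.6 and 44.3 CPM in OPA1+/- libraries at 6 months, against 25.8, 26.9 and 35.5 CPM in OPA1+/+ libraries. At 3 months Mcm2 was at 46.7, 57.1, 45.8 and 45.8 CPM in OPA1+/- libraries and at 25.2, 30.1, 67.7 and 57.3 CPM in OPA1+/+ libraries. The lowest OPA1+/- value at 6 months thus lay above the highest OPA1+/+ value, and the log2 fold changes were 0.74 ± 0.30 at 6 months and 0.12 ± 0.27 at 3 months.

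Mcm3, Mcm4 and Mcm5 were also separate between genotypes at 6 months. Mcm3 ran from 33 to 47.6 CPM in OPA1+/- and from 23.1 to 28.5 CPM in OPA1+/+ (log2 fold change 0.74 ± 0.34). Mcm4, a subunit of the catalytic core of the ring, ran from 46.5 to 61.1 CPM in OPA1+/- and from 34.1 to 42.8 CPM in OPA1+/+ (0.49 ± 0.24). Mcm5, which forms with Mcm2 the gate through which DNA enters the ring, ran from 39.2 to 53.3 CPM in OPA1+/- and from 28.6 to 33.8 CPM in OPA1+/+ (0.57 ± 0.31). At 3 months their log2 fold changes were -0.01 ± 0.30, 0.04 ± 0.22 and 0.01 ± 0.28.

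Mcm7 was the subunit with the smallest difference at 6 months, and its groups overlapped. It was at 39.0, 41.3, 41.3 and 32.4 CPM in OPA1+/- libraries and at 30.0, 26.3 and 32.7 CPM in OPA1+/+ libraries, so OPA1+/- replicate 4 lay just below OPA1+/+ replicate 3. The log2 fold change was 0.38 ± 0.21 at 6 months and -0.01 ± 0.19 at 3 months. Mcm7 shares exonic bases on the opposite strand with Cops6 and Ap4m1, at 53.9 to 69.9 CPM and 24.0 to 27.4 CPM, and hosts Mir25, Mir93 and Mir106b, which had 0, 0 and at most 4 counts. The counts were made with a strand setting, which assigns opposite-strand reads elsewhere.

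The loaders were arranged like the ring subunits. Cdc6, the ATPase that bridges the origin recognition complex and the MCM ring, was at 8.21, 7.53, 8.69 and 7.43 CPM in OPA1+/- libraries at 6 months, against 4.30, 4.03 and 5.44 CPM in OPA1+/+ libraries. At 3 months Cdc6 was at 6.37, 8.65, 8.85 and 7.08 CPM in OPA1+/- libraries and at 4.56, 4.36, 11.01 and 10.4 CPM in OPA1+/+ libraries. Its 6-month values did not overlap, its 3-month values did, and the log2 fold changes were 0.80 ± 0.30 and 0.03 ± 0.26.

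Cdt1, the factor that brings the MCM ring to the origin and that is destroyed in S phase, was at 11.2, 13.4, 15.01 and 12.6 CPM in OPA1+/- libraries at 6 months, against 8.89, 7.61 and 9.41 CPM in OPA1+/+ libraries. At 3 months Cdt1 was at 13.4, 18.1, 14.5 and 12.9 CPM in OPA1+/- libraries and at 6.58, 10.2, 18.1 and 15.3 CPM in OPA1+/+ libraries. The 6-month groups were separate, with a log2 fold change of 0.59 ± 0.27, and at 3 months it was 0.23 ± 0.23.

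Gins2 followed the loaders and Mcm10 did not to the same degree. Gins2 was at 10.02, 11.2, 10.6 and 9.54 CPM in OPA1+/- libraries at 6 months, against 5.95, 6.12 and 7.39 CPM in OPA1+/+ libraries. At 3 months it was at 11.4, 13.5, 11.7 and 9.88 CPM in OPA1+/- libraries and at 5.32, 6.75, 13.4 and 12.9 CPM in OPA1+/+ libraries. Gins2 thus had separate groups at 6 months, with a log2 fold change of 0.67 ± 0.26, and 0.27 ± 0.23 at 3 months.

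Mcm10, which despite its name is no part of the MCM2-7 ring, was at 7.38, 9.84, 11.2 and 7.74 CPM in OPA1+/- libraries at 6 months, against 7.99, 6.72 and 7.77 CPM in OPA1+/+ libraries. At 3 months Mcm10 was at 7.10, 12.6, 8.93 and 9.38 CPM in OPA1+/- libraries and at 5.40, 8.42, 16.9 and 13.5 CPM in OPA1+/+ libraries. Its groups overlapped at both ages, and its log2 fold changes were 0.27 ± 0.33 at 6 months and -0.23 ± 0.29 at 3 months.

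**Figure D2:**
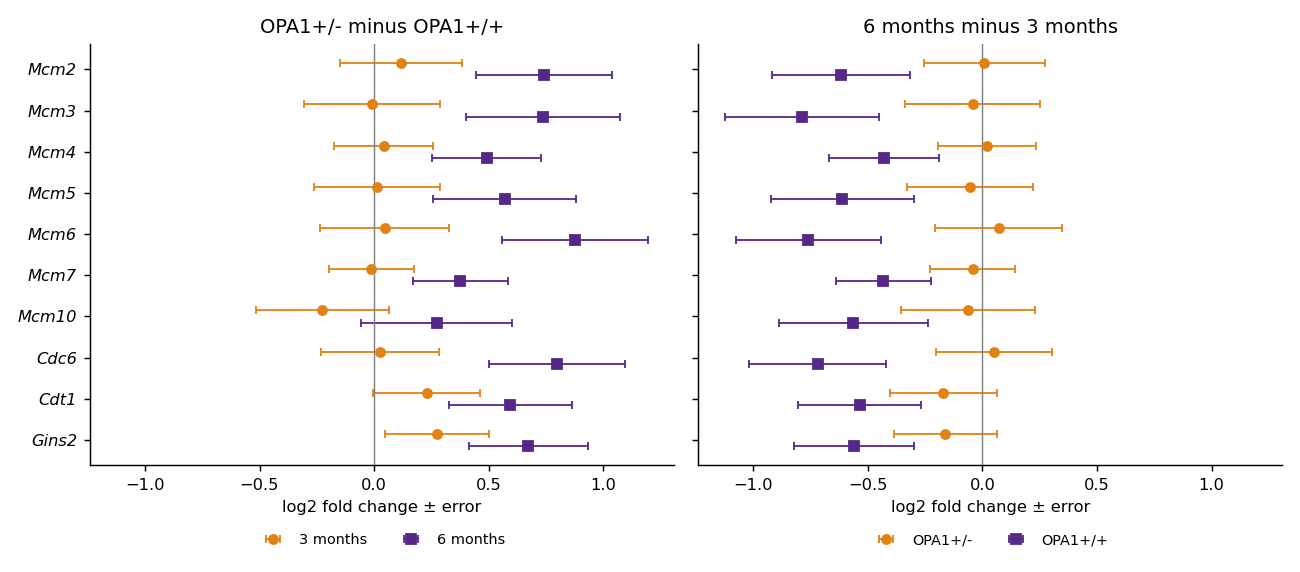
Log2 fold change of each licensing and helicase gene (x axis, ± error) from edgeR over all 15 libraries: OPA1+/- minus OPA1+/+ at each age (left) and 6 months minus 3 months in each genotype (right). At 6 months all 10 genotype values lie right of 0, from 0.27 to 0.88, and in OPA1+/+ all 10 age values lie left of 0, from -0.79 to -0.43.

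In edgeR's quasi-likelihood fit over all 15 libraries, 0 of the 10 genes passed the adjusted threshold of 0.05 at 6 months, where 0.323% of all genes did. At an unadjusted p under 0.05 there were 5 of 10 in edgeR, 8 in DESeq2 and 9 in limma voom, where 10.2%, 8.87% and 13.2% of all genes were. DESeq2 and limma voom also called 0 of 10 after adjustment, where they called 1.12% and 0.723% of all genes. When the fit was restricted to the 7 libraries at 6 months, 8 of the 10 genes passed as higher in OPA1+/-, all but Mcm7 and Mcm10, where 0.481% of 15186 genes did. The shared fit includes the wide spread of the 3-month OPA1+/+ libraries and the restricted fit does not.

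At 3 months 0 of 10 passed in edgeR, DESeq2, limma voom and the fit of those 2 groups alone, where 0.00634%, 0.273%, 0.038% and 0% of all genes passed. At an unadjusted p under 0.05 there were 0 of 10 in edgeR, 0 in DESeq2 and 1 in limma voom, where 9.03%, 7.2% and 11% of all genes were. Averaged over both ages the median was 0.39, and 0 of 10 passed in edgeR, DESeq2 and limma voom, where 0.793%, 1.99% and 1.42% of all genes did. At an unadjusted p under 0.05 there were 2 of 10 in edgeR, 5 in DESeq2 and 9 in limma voom, where 12.4%, 10.5% and 15.1% of all genes were. The genes were chosen by these contrasts, so their counts are set beside the background and nothing is read from them.

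The spread within the OPA1+/+ group at 3 months was the widest of the 4 groups for every gene. The coefficient of variation of the 10 genes was 30.2% to 48.4% there, against 10.6% to 23.9% in OPA1+/- at 3 months, 7% to 19.9% in OPA1+/- at 6 months and 7.33% to 18.1% in OPA1+/+ at 6 months. The ratio of the highest to the lowest library ran from 1.81 (Mcm7) to 3.13 (Mcm10) in OPA1+/+ at 3 months. For 8 of the 10 genes replicates 3 and 4 of that group were the 2 highest of all 15 libraries, the exceptions being Cdt1 and Gins2, where OPA1+/- replicate 2 at 3 months was highest. For 9 of the 10, all but Mcm10, replicates 1 and 2 of that group lay below all 8 OPA1+/- libraries.

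Between ages, the OPA1+/- corneas had nearly the same levels at 6 and 3 months, with a median log2 fold change of -0.04 and a range of -0.17 (Cdt1) to 0.07 (Mcm6). In OPA1+/+ corneas all 10 genes had lower means at 6 months than at 3 months, with a median of -0.59 and a range of -0.79 (Mcm3) to -0.43 (Mcm4). No gene was separate between ages in OPA1+/+, where 4.44% of all genes were separate upward and 3.7% downward, because the low pair at 3 months reached into the 6-month range. None was separate in OPA1+/- either, where the shares were 2.9% and 3.14%. In OPA1+/- 0 of 10 passed in edgeR, DESeq2 and limma voom, where 0.0824%, 0.425% and 0.254% of all genes did, and 0 were under an unadjusted p of 0.05 in edgeR, where 9.05% of all genes were. In OPA1+/+ 0 of 10 passed in the same 3 tools, where 0.0507%, 0.743% and 0.00634% of all genes did, and 3, 9 and 0 were under an unadjusted p of 0.05, where 10.2%, 8.51% and 11.2% of all genes were. The median in OPA1+/+ was -0.35 without replicate 3 of 3 months. The age comparison in OPA1+/+ and the genotype comparison at 6 months share the same 3 libraries, so their values are not independent.

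The difference of the genotype effect between ages (the interaction) was positive for all 10 genes, from 0.37 (Cdt1) to 0.83 (Mcm6), with a median of 0.53. It passed for 0 of 10 genes in edgeR, DESeq2 and limma voom, where 0%, 0.127% and 0% of all genes passed. Under an unadjusted p of 0.05 there were 0, 2 and 0 in the same tools, where 6.91%, 5.59% and 8.76% of all genes were. The effect was therefore not shown to differ between ages. Leaving out OPA1+/+ replicate 3 at 3 months gave a median of 0.28, and leaving out replicate 1 gave 0.74.

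Per kilobase of exon, the ring subunits were the most abundant of the 10 genes and Cdc6 and Mcm10 the least. Mcm4 averaged 13.8 ± 3.19 CPM per kb (SD over 15 libraries) and Mcm2 averaged 6.33 ± 1.85, with Mcm5 at 10.8, Mcm6 at 10.8, Mcm3 at 10.4 and Mcm7 at 8.47 CPM per kb between them. In every one of the 15 libraries Mcm4 was the highest and Mcm2 the lowest ring subunit per kb, with a ratio of 2.03 to 2.70, although the protein ring holds the subunits in equal numbers. The neighbours Mcm5 and Mcm6 did not differ beyond their spread, with Mcm5 higher in 8 of 15 libraries, nor did Mcm6 and Mcm3, with Mcm6 higher in 9 of 15. Mcm3 lay above Mcm7 in 13 of 15. Cdt1 followed at 3.97, Gins2 at 2.37, Cdc6 at 1.36 and Mcm10 at 1.22 CPM per kb, and Cdc6 lay above Mcm10 in 11 of 15 libraries. Lengths are those of all annotated exons joined, so a transcript that uses fewer exons is understated on this scale. Among the ring subunits that length is longest for Mcm2 (6956 bases) and shortest for Mcm4 (3589 bases), so their places rest in part on it. In plain CPM Mcm2 was not the lowest. At 6 months it averaged 49.1 CPM in OPA1+/- and 29.4 CPM in OPA1+/+, against 41.6 and 25.0 CPM for Mcm3.

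**Figure D3:**
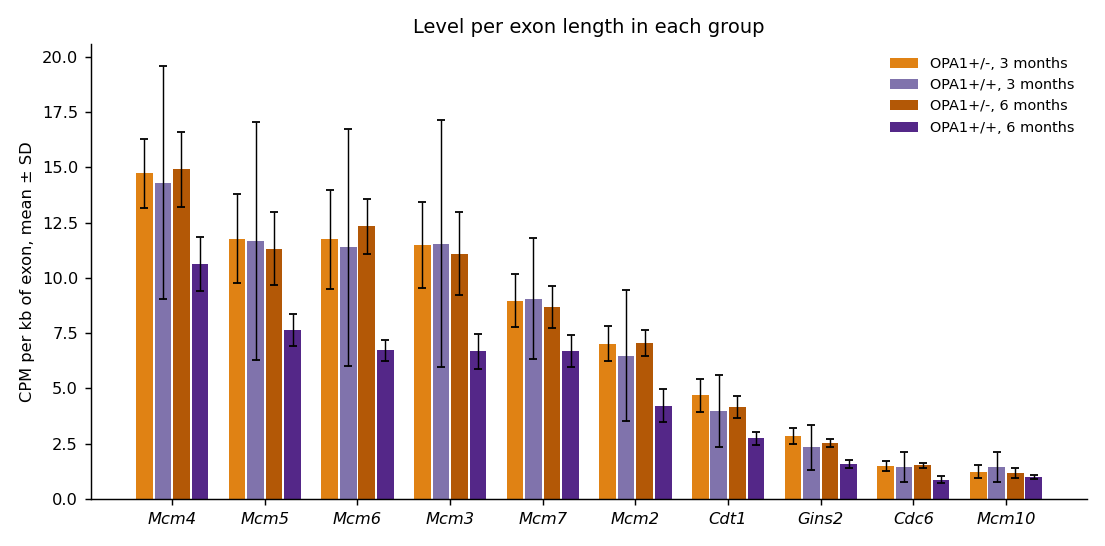
Level per kilobase of exon (CPM per kb, mean ± SD) of the 10 genes in OPA1+/- (left) and OPA1+/+ (right) at 3 months and then at 6 months, ordered by the mean over all 15 libraries. Mcm4 is the highest and Mcm2 the lowest ring subunit in each group, and Cdc6 and Mcm10 are the lowest of the 10.

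The 10 genes varied together from library to library. Over the 45 pairs, Pearson's r of log2 CPM over 15 libraries ran from 0.75 (Mcm10 with Gins2) to 0.98 (Mcm2 with Mcm4), with a median of 0.94. After each group's mean was subtracted, r ran from 0.83 to 0.99 with a median of 0.93, so libraries of 1 group that were high for 1 gene were high for the others. These values describe genes in the same 15 libraries, which share their scaling, and the high and low pairs of OPA1+/+ at 3 months weigh heavily in them.

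Among 14322 other genes with a mean of at least 1 CPM, those whose level followed the mean of the 10 most closely over 15 libraries were Timeless (r = 0.98), Uhrf1 (0.98), Gins1 (0.97), Lig1 (0.97), Pold1 (0.97), Tcf19, Topbp1, Dna2, Dtl and Rmi2 (0.95 for the last). Timeless encodes a fork protection factor, Uhrf1 a reader that guides maintenance DNA methylation, Gins1 a GINS subunit, Lig1 the ligase of lagging-strand synthesis and Pold1 the catalytic subunit of DNA polymerase delta. By deviations from group means the closest were Lig1 (0.99), Uhrf1, Timeless, Pole, Dna2, Atad2, Topbp1, Pold1, Chmp2a and Tcf19. Of the leading genes, Timeless had a log2 fold change of 0.81 at 6 months and 0.08 at 3 months, Uhrf1 0.63 and -0.03, and Lig1 0.51 and -0.13. Pcna, the sliding clamp, ranked 30 over 15 libraries (r = 0.92) and 114 by deviations (r = 0.88) and was at 27.2 to 34.9 CPM in OPA1+/- and 20.1 to 27.7 CPM in OPA1+/+ at 6 months, with overlap. None of Timeless, Uhrf1, Lig1 and Pcna passed the threshold at either age.

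The other factors of licensing did not all differ as the 10 genes did. A broader licensing list held 16 further genes, Mcm8, Mcm9 and Dscc1 among them, all tested. At 6 months 13 of the 16 had a positive log2 fold change, with a median of 0.08. None passed in edgeR, DESeq2 or limma voom, where 0.323%, 1.12% and 0.723% of all genes did. In edgeR 3 were under an unadjusted p of 0.05, where 10.2% of all genes were. In the fit restricted to the 6-month libraries 2 of the 16 passed as higher, where 0.481% of all genes did. Orc1, the subunit of the origin recognition complex that cycles with the cell cycle, was at 2.92 to 5.602 CPM in OPA1+/- and 1.81 to 2.80 CPM in OPA1+/+ at 6 months (1.05 ± 0.49). Orc2, Orc3, Orc4, Orc5 and Orc6, the remaining subunits, had values of 0.05 to 0.10 with overlapping groups. Dtl, the adaptor that sends Cdt1 to the CUL4 ubiquitin ligase, was at 31.4 to 39.1 CPM in OPA1+/- and 16.6 to 21.2 CPM in OPA1+/+ (0.86 ± 0.30), whereas Cul4a, Cul4b and Ddb1 of the same ligase had values between -0.04 and 0.01. Gmnn, which encodes the Cdt1 inhibitor geminin, was at 7.08 to 9.77 CPM in OPA1+/- and 6.03 to 6.69 CPM in OPA1+/+ (0.34 ± 0.19). Dscc1 was at 4.14 to 5.96 CPM in OPA1+/- and 1.66 to 2.69 CPM in OPA1+/+ (1.04 ± 0.38). Lrwd1, which stabilises the origin recognition complex, lay the other way, at 14.6 to 15.7 CPM in OPA1+/- and 16.7 to 18.5 CPM in OPA1+/+ (-0.22 ± 0.09).

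Of 11 further activation genes, 9 had positive values at 6 months with a median of 0.30, and 0 passed in edgeR, DESeq2 or limma voom. In edgeR 2 were under an unadjusted p of 0.05, where 10.2% of all genes were. In the restricted fit 2 of the 11 passed as higher, where 0.481% of all genes did. Gins1 was at 3.77 to 4.81 CPM in OPA1+/- and 2.09 to 2.80 CPM in OPA1+/+ (0.78 ± 0.26), while Gins4 of the same complex was at 11.4 to 14.01 CPM in OPA1+/- and 12.9 to 14.2 CPM in OPA1+/+ (-0.09 ± 0.11). Cdc45, which completes the active helicase, had 0.33 ± 0.30 with overlapping groups. Cdc7, the kinase that phosphorylates the ring, had 0.30 ± 0.20, and Dbf4, its activating subunit, had -0.29 ± 0.12. The kinase and its activator thus differed in sign at 6 months, where neither passed. At 3 months both were negative (-0.36 and -0.35). The fork genes (polymerases, primase, clamp and ligase) had positive values for 37 of 42 at 6 months with a median of 0.22, and 17 were separate upward, where 5.71% of all genes were. The fork genes with the highest values were Ung, a uracil DNA glycosylase (1.03), Timeless (0.81) and Hells, a chromatin remodeller (0.76). Of 10 nucleotide supply genes the median was 0.04. No fork or nucleotide supply gene passed at 6 months in edgeR over all 15 libraries, DESeq2 or limma voom. In edgeR 6 of 42 and 1 of 10 were under an unadjusted p of 0.05, near the 10.2% of all genes. In the fit restricted to the 6-month libraries 4 of 42 fork genes and 1 of 10 nucleotide supply genes passed as higher, where 0.481% of all genes did.

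The mitotic markers lay on the opposite side to the licensing genes at 6 months. Of 72 tested markers of spindle, kinetochore, condensin, cytokinesis and G2/M control, 71 had negative values, with a median of -0.57, and every OPA1+/- library lay below every OPA1+/+ library for 67, where 5.62% of all genes did. In edgeR's quasi-likelihood test 11 of the 72 fell and 0 rose, where 0.165% of all genes fell. These markers were listed with earlier results of these libraries known, so their direction is not independent evidence. The 11 were Kif11, Spag5, Kif22, Spc25, Troap, Kif14, Kif2c, Kif4, Nusap1, Dlgap5 and Nuf2.

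Kif11, the kinesin that separates spindle poles, was at 18.2, 22.5, 19.8 and 19.1 CPM in OPA1+/- libraries at 6 months, against 29.3, 36.5 and 32.9 CPM in OPA1+/+ libraries. It fell by 0.73 ± 0.11 on the log2 scale (edgeR adjusted p = 0.0119). Spag5, a spindle protein, averaged 11.9 ± 0.917 CPM in OPA1+/- and 19.2 ± 0.433 CPM in OPA1+/+ (SD, n = 4 and 3; log2 fold change -0.69 ± 0.12, edgeR adjusted p = 0.0156). Kif22, a chromosome-arm kinesin, averaged 9.97 ± 0.723 CPM in OPA1+/- and 16.6 ± 0.795 CPM in OPA1+/+ (-0.73 ± 0.13, edgeR adjusted p = 0.0156). Spc25, a subunit of the kinetochore NDC80 complex, averaged 5.30 ± 0.501 CPM in OPA1+/- and 8.496 ± 0.335 CPM in OPA1+/+ (-0.68 ± 0.12, edgeR adjusted p = 0.0182). The OPA1+/- libraries lay below the OPA1+/+ libraries for all 4 genes. Mki67, which encodes the proliferation antigen present through S phase, G2 and mitosis, was at 203 to 223 CPM in OPA1+/- and 283 to 331 CPM in OPA1+/+ at 6 months and did not pass (-0.55 ± 0.17, edgeR adjusted p = 0.242).

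At 3 months the mitotic markers had a median of -0.30 with 71 of 72 negative. In edgeR 0 passed, in DESeq2 4 and in limma voom 0, where 0.00634%, 0.273% and 0.038% of all genes did. Under an unadjusted p of 0.05 there were 41 in edgeR, where 9.03% of all genes were. Averaged over both ages, 30 of 72 fell in edgeR, where 0.393% of all genes fell, led by Kif11 (-0.58 ± 0.08), Spag5 (-0.53 ± 0.08), Cdca2, a mitotic phosphatase regulator (-0.51 ± 0.08), and Dlgap5, a spindle protein (-0.54 ± 0.08), with edgeR adjusted p of 0.00409, 0.00616, 0.00727 and 0.00727. At 3 months 3 of the 72 lay below without overlap, where 1.95% of all genes did. In OPA1+/+ the markers had a median of 0.24 at 6 months over 3 months, with 66 of 72 positive, and in OPA1+/- the median was -0.02. In OPA1+/+ 0 were called and 14 were under an unadjusted p of 0.05 in edgeR, where 0.0507% and 10.2% of all genes were.

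Single libraries changed how many markers passed, and how many of all tested genes did. At 6 months, leaving out OPA1+/+ replicate 1, 2 or 3 of that age left 3, 0 or 4 markers in place of 11, and leaving out OPA1+/- replicate 1, 2, 3 or 4 of that age left 3, 4, 2 or 5. Dropping OPA1+/+ replicate 2 or 4 of 3 months gave 22 or 24, and dropping the 2 libraries with photoreceptor transcripts gave 1. Over all tested genes, 26 fell at 6 months in the full fit. Without OPA1+/+ replicate 1, 2 or 3 of that age 7, 1 or 17 did. Without OPA1+/- replicate 1, 2, 3 or 4 of that age 16, 11, 5 or 16 did. Without OPA1+/+ replicate 2 or 4 of 3 months 42 or 52 did, and without the 2 photoreceptor libraries 5 did. Averaged over both ages, the 30 markers became 16 or 6 on dropping OPA1+/+ replicate 1 or 2 of 6 months, and 15 or 14 on dropping OPA1+/- replicate 1 or 3 of 6 months. They became 16 on dropping OPA1+/- replicate 1 of 3 months, 19 or 50 on dropping OPA1+/+ replicate 2 or 4 of 3 months, and 10 on dropping the 2 libraries with photoreceptor transcripts. Over all tested genes, 62 fell in the full fit averaged over both ages. In the fits just named, in the same order, 27 or 9, 27 or 22, 25, 31 or 133, and 12 did. In the same fits the median of the licensing genes at 6 months stayed between 0.58 and 0.71.

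**Figure D4:**
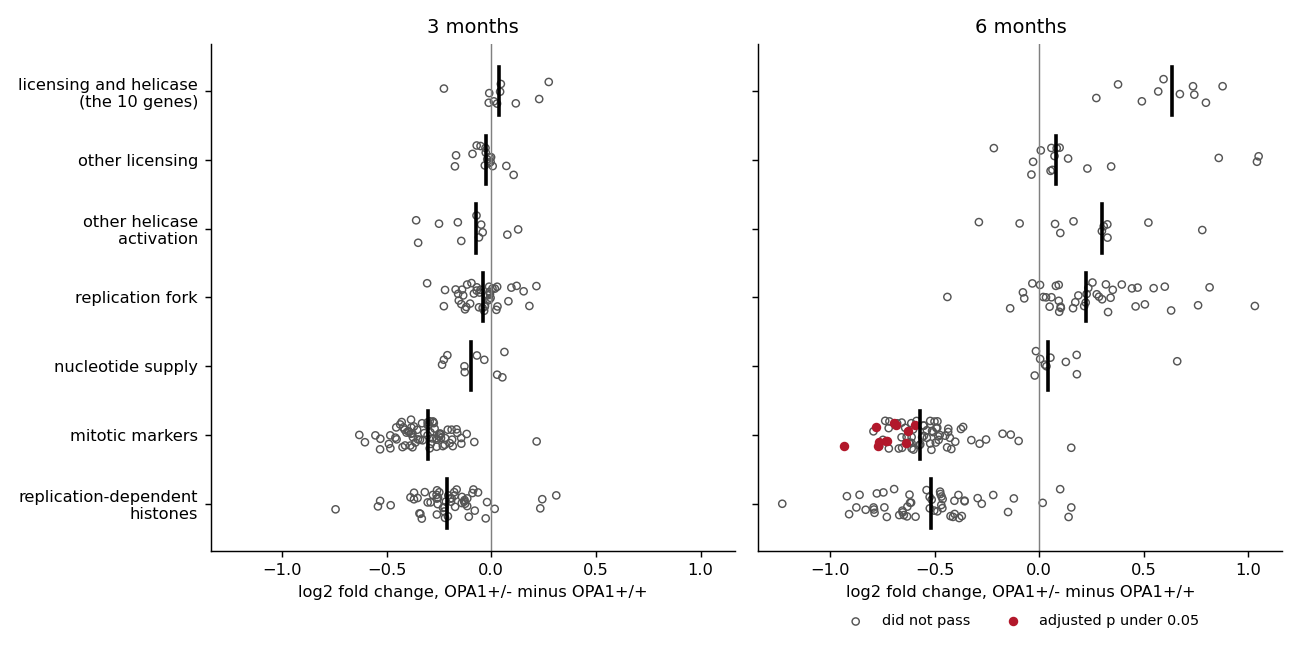
Log2 fold change, OPA1+/- minus OPA1+/+ (x axis), of each tested gene of the licensing and helicase genes and of 6 other cell cycle lists at 3 and 6 months; filled points passed edgeR's adjusted threshold of 0.05 and vertical bars are list medians. At 6 months the licensing and helicase median is 0.63 and the mitotic median -0.57, and all 11 filled points are mitotic markers.

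Set side by side in each library, the summed level of the 10 licensing genes and that of the 72 mitotic markers gave different pictures in the genotypes. The 10 genes summed to 309, 343, 367 and 284 CPM in OPA1+/- libraries at 6 months, against 200, 197 and 237 CPM in OPA1+/+ libraries. The mitotic markers summed to 1604, 1689, 1681 and 1705 CPM in the same OPA1+/- libraries, against 2326, 2461 and 2406 CPM in OPA1+/+. The ratio of mitotic to licensing CPM was therefore 4.58 to 6.01 in OPA1+/- and 10.2 to 12.5 in OPA1+/+, without overlap.

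At 3 months the licensing sum was 299, 399, 307 and 315 CPM in OPA1+/- libraries and 186, 221, 459 and 414 CPM in OPA1+/+ libraries. The mitotic sum was 1480, 1526, 1959 and 1742 CPM in the same OPA1+/- libraries and 1832, 2421, 2285 and 1683 CPM in OPA1+/+ libraries. Within OPA1+/+ at 3 months the sums did not move in a fixed relation. Replicate 2 had a low licensing and a high mitotic sum, replicate 3 was high in both, and replicate 4 had a high licensing and a low mitotic sum. Replicate 1 was low in licensing, and its mitotic sum lay nearer to that of replicate 4 than to those of replicates 2 and 3. At that age the mitotic to licensing ratio ran from 3.83 to 6.38 in OPA1+/- and from 4.06 to 10.95 in OPA1+/+, with overlap. Replicate 2 of OPA1+/+ at 3 months lay beside the OPA1+/+ libraries at 6 months in both sums.

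**Figure D5:**
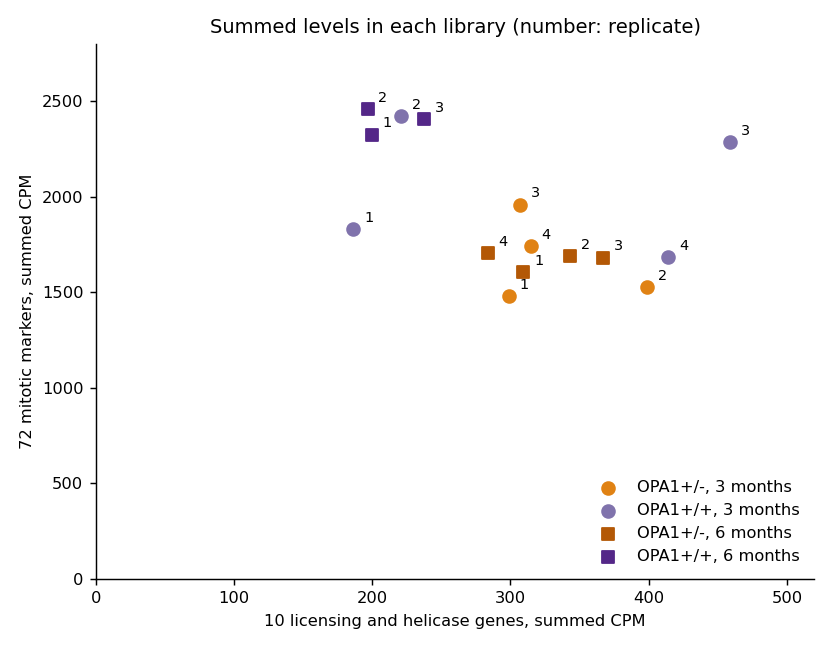
Summed CPM of the 72 mitotic markers (y axis) against summed CPM of the 10 licensing and helicase genes (x axis), 1 point per library with its replicate number. The OPA1+/+ libraries at 6 months sit at 197 to 237 and 2326 to 2461, the OPA1+/- libraries at 6 months at 284 to 367 and 1604 to 1705, and the OPA1+/+ libraries at 3 months are spread over the plot.

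The replication-dependent histone genes, whose transcripts accumulate in S phase, lay on the opposite side to the licensing genes in the genotype comparison at 6 months. Of 54 tested, 50 had negative values at 6 months with a median of -0.52. In edgeR 0 passed, DESeq2 called 1 as lower and limma voom 0, where 0.323%, 1.12% and 0.723% of all genes were called in either direction. Under an unadjusted p of 0.05 there were 29 in edgeR, where 10.2% of all genes were. Their summed level was 518 to 693 CPM in OPA1+/- and 677 to 937 CPM in OPA1+/+ at 6 months, and 676 to 764 CPM in OPA1+/- and 567 to 1110 CPM in OPA1+/+ at 3 months. Within OPA1+/+ at 3 months the histone sums were 567, 803, 1110 and 908 CPM in replicates 1 to 4, which rank as the licensing sums of those libraries do. These genes are near-identical copies in clusters, so reads may be missed or misplaced among them and the values of single genes are uncertain.

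Among 33 tested genes of G1/S control, 0 passed at 6 months in edgeR, DESeq2 called 1 higher and 3 lower, and limma voom 1 higher and 2 lower. Of all genes 0.323%, 1.12% and 0.723% were called in either direction. Under an unadjusted p of 0.05 there were 10 in edgeR, where 10.2% of all genes were. Averaged over both ages, 1 rose and 2 fell in edgeR, where 0.793% of all genes were called. Ccnd2, a D-type cyclin that drives entry into S phase, rose by 0.66 ± 0.12 on the log2 scale (edgeR adjusted p = 0.0309), and was at 362 to 571 CPM in OPA1+/- and 226 to 254 CPM in OPA1+/+ at 6 months. Cdkn2c, an inhibitor of CDK4 and CDK6, fell by 0.40 ± 0.08 (edgeR adjusted p = 0.0244), and Ccna2, a cyclin of S phase and G2, fell by 0.51 ± 0.11 (edgeR adjusted p = 0.0439). Cdkn1a, which encodes the CDK inhibitor p21, rose in OPA1+/+ corneas to 129 ± 8.35 CPM at 6 months (SD, n = 3), against 100 ± 4.92 CPM at 3 months (SD, n = 4; log2 fold change 0.37 ± 0.06, edgeR adjusted p = 0.0406). Of 15 fits that each left out 1 library, the call of Ccnd2 was lost in 11, that of Ccna2 in 12, that of Cdkn1a in 9 and that of Cdkn2c in 2.

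Transcripts of the circadian clock differed alongside the licensing genes, and the labels give no time of day. Arntl, the activator of the clock loop, was at 23.8, 19.8, 18.2 and 19.2 CPM in OPA1+/- libraries at 6 months, against 39.5, 51.4 and 54.3 CPM in OPA1+/+ libraries. At 3 months Arntl was at 16.1, 10.2, 26.6 and 22 CPM in OPA1+/- libraries and at 24.7, 21.1, 12.6 and 12.1 CPM in OPA1+/+ libraries. The OPA1+/+ libraries at 6 months thus stood apart, and within OPA1+/+ at 3 months the pair with more licensing transcripts (replicates 3 and 4) had less Arntl. The 10 clock genes that peak opposite to Arntl did not mirror this split. They summed to 2065 and 2166 CPM in replicates 3 and 4, below the 2248 and 2397 CPM of replicates 1 and 2. Of the 4 tested genes that peak with Arntl, 3 lay below without overlap at 6 months, where 5.62% of all genes did. In edgeR 0 of the 4 passed, with 3 under an unadjusted p of 0.05, where 10.2% of all genes were. In DESeq2 3 fell and in limma voom 2, where 1.12% and 0.723% of all genes were called in either direction. The list summed to 274 to 339 CPM in OPA1+/- and 371 to 423 CPM in OPA1+/+. Of 10 genes that peak opposite to it, 6 rose at 6 months in edgeR, where 0.159% of all genes rose, and they summed to 2432 to 2697 CPM in OPA1+/- and 2087 to 2178 CPM in OPA1+/+. No gene of either list was at 0 in all libraries.

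With a clock score as a covariate, the median log2 fold change of the 10 licensing genes at 6 months was -0.17, with single values from -0.90 ± 0.67 (Mcm10) to 0.04 ± 0.63 (Cdc6), and 0 of 10 passed, where 0% of all genes did. The median in OPA1+/+ at 6 months over 3 months was 0.02 in that fit. In the same fit the mitotic median at 6 months was -0.30 and 0 of 72 markers passed. The errors of the 10 genes were 0.44 to 0.72 in that fit. The score itself separates the OPA1+/+ libraries at 6 months (0.61 to 1.02) from the OPA1+/- libraries (-0.70 to -0.15), so clock and genotype cannot be told apart at that age.

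Markers of other cell types that a dissected cornea could hold were summed in the same way. Limbal and basal markers summed to 2434 to 2634 CPM in OPA1+/- and 2213 to 2962 CPM in OPA1+/+ at 6 months. In edgeR 0 of 10 tested passed, with 1 under an unadjusted p of 0.05, where 0.323% and 10.2% of all genes were. Leukocyte markers summed to 73.3 to 87.0 CPM in OPA1+/- and 70.4 to 89.0 CPM in OPA1+/+, with 0 of 10 passing and 0 under an unadjusted p of 0.05. Stromal keratocyte markers summed to 1935 to 2488 CPM in OPA1+/- and 1932 to 2471 CPM in OPA1+/+, and corneal endothelium markers to 2387 to 2539 CPM in OPA1+/- and 2356 to 2467 CPM in OPA1+/+. In edgeR 0 of 10 stromal and 0 of 9 endothelial markers passed, with 0 and 6 under an unadjusted p of 0.05, where 10.2% of all genes were. The endothelial log2 fold changes were positive for 5 and negative for 4, from -0.36 to 0.34. Their near-equal sums thus hide single markers that differed in both directions. Conjunctival and goblet cell markers summed to 2381 to 3282 CPM in OPA1+/- and 2286 to 3232 CPM in OPA1+/+, with 0 of 6 passing in edgeR and 0 under an unadjusted p of 0.05. Markers of differentiated corneal epithelium summed to 66000 to 68500 CPM in OPA1+/- and 63980 to 66630 CPM in OPA1+/+ at 6 months. In edgeR 0 of 8 tested passed, with 0 under an unadjusted p of 0.05. At 3 months they summed to 62560, 65450, 74400 and 74030 CPM in OPA1+/+ replicates 1 to 4, lower in the low licensing pair. Krt12, one of them, was at 26620, 27880, 32200 and 32910 CPM there. In OPA1+/- at 3 months the list summed to 67460, 74130, 70560 and 69150 CPM. The part of these cells in the licensing levels was not tested. Without the 2 libraries with photoreceptor transcripts the licensing median at 6 months was 0.615.

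Neighbouring genes that overlap a member, or start within 1 kb of its start on the other strand, were set beside it. Ap4m1, given above, starts 420 bases from Mcm7 on the other strand. Prkdc, the catalytic subunit of the DNA-dependent protein kinase, starts 466 bases from Mcm4 on the other strand and was at 110.0 to 118 CPM in OPA1+/- and 95.8 to 115 CPM in OPA1+/+ at 6 months, a log2 fold change of 0.13 ± 0.07 against 0.49 ± 0.24 for Mcm4. Gins2 overlaps Gse1 (61.96 to 82.04 CPM) on the other strand and shares exonic bases with it. Gins2 starts 227 bases from Gm10614, at 0.452 to 1.33 CPM. In the files, read as GRCm39, Mcm4 lies at chr16:15441761-15455264 on the minus strand, Mcm7 at chr5:138162845-138170684 on the minus strand and Gins2 at chr8:121305372-121316043 on the minus strand.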

How the data were processed

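Total RNA of 15 mouse cornea libraries was sequenced after ribosomal RNA depletion and read as single 75-base reads from a directional library, per the labels' protocols. The deposited values are whole-number counts. Exon reads were summed by gene with featureCounts 2.0.1 (strand setting 2, GENCODE mouse release 28, no multimapper option), per the file headers. The submitters' processing notes name mm10 and DESeq2, whereas release 28 is on GRCm39, and coordinates are those of the files. The sources used here name no aligner. Symbols matched 52081 of 55357 identifiers.

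Groups came from the sample titles. One edgeR 4.0.16 quasi-likelihood model (R 4.3.3, TMM factors, filterByExpr, robust, a mean for each group) covered all 15 libraries and 15770 genes, with 11 residual degrees of freedom. Adjusted p-values are Benjamini-Hochberg values over the 15770 genes, called at 0.05. The error of a log2 fold change is its size divided by the square root of F. CPM values are the deposited counts per 1000000 of the TMM-scaled total, and likeness used log2 CPM with a prior count of 2. Since the labels do not say that libraries come from separate animals, p-values measure the spread between these libraries.

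The members and all gene lists were chosen with earlier results of these data known, and the symbol pattern of the histone list was adjusted to older symbols once the files were seen. All 10 members are named, with up to 4 passing genes per other list and comparison and the 10 genes most like the members. The further passing mitotic markers, and Mki67, Ung, Hells, Uhrf1, Lig1 and Pcna by fold change, were named after their values were seen. Alternatives were DESeq2 1.42.0 (size factors in edgeR, and its Wald test), limma 3.58.1 voom with sample weights, no low-count filter, a 1 CPM mean filter, a replicate block, only the groups compared, a clock covariate, leaving out the 2 libraries with photoreceptor transcripts, and leaving out each library. The edgeR step was tested on simulated data. Some results are not reported here.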

Additional observations from a re-analysis of the deposited data

Results flagged for a closer look

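Dixon's test was applied to 36 groups of 4 libraries (each gene and the summed members and mitotic markers), and 3 were flagged, where chance flags about 1 in 20. All 3 are OPA1+/- at 3 months, replicate 2, which stood above the other libraries of its group. Mcm2 was at 57.1 CPM in that library, Mcm4 at 61.1 CPM, and the 10 licensing and helicase genes summed to 399 CPM. The members vary together across libraries, so the 3 flags are not independent.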

How the results depend on the processing

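The median log2 fold change of the licensing and helicase genes at 6 months was 0.58 to 0.71 when any 1 library was left out. With 1 library left out it was -0.15 to 0.26 at 3 months, 0.28 to 0.50 averaged over both ages, -0.80 to -0.35 for age in OPA1+/+ and 0.28 to 0.74 for the interaction. At 6 months, under the other settings, it moved by more than its spread only with the clock covariate (-0.17). The same covariate gave medians of -0.11 averaged over both ages, 0.020 for age in OPA1+/+ and -0.15 for the interaction, and all 40 of 1420 values of single licensing genes that moved by more than their error did so under it. The count of licensing genes past the threshold at 6 months was 8 when only the groups compared were fitted and 0 in every other fit. With voom the licensing median was 0.28 at 3 months, -0.36 for age in OPA1+/+ and 0.32 for the interaction.

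Mitotic markers past the threshold at 6 months numbered 39 with DESeq2, 28 with voom, 25 without a filter, 56 with only the groups compared, 0 with the clock covariate, 1 without the libraries with photoreceptor transcripts, and 0 to 24 with 1 library left out. In the same order, 113, 74, 74, 124, 0, 5 and 1 to 52 of all tested genes fell. Averaged over both ages the markers numbered 56 with DESeq2, 0 with the clock covariate, 10 without the libraries with photoreceptor transcripts, and 6 to 50 with 1 library left out. In the same order, 183, 0, 12 and 9 to 133 of all tested genes fell. At 3 months the markers numbered 4 with DESeq2, 4 without a filter, and 0 to 4 with 1 library left out, and for age in OPA1+/+ 1 passed without a filter. Of all tested genes 18 fell at 3 months with DESeq2, 17 without a filter, and 0 to 8 with 1 library left out. For age in OPA1+/+ without a filter 65 rose and 40 fell. With the clock covariate the mitotic median was -0.30 at 6 months, -0.28 averaged over both ages, 0.051 for age in OPA1+/+ and -0.020 for the interaction. The cause of these shifts was not tested.

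A replicate block gave 15 mitotic markers at 6 months and 22 averaged over both ages, a licensing median of 0.62 at 6 months, and 0 licensing genes past the threshold in any comparison. Of all tested genes 19 rose and 29 fell at 6 months with that block. Averaged over both ages 44 rose and 46 fell. Deviations from group means in libraries with the same replicate number had r of -0.14 to 0.23 over 21 pairs, so no pairing by number was seen. With so few libraries per group this measure cannot exclude one.

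With 54 to 140 counts per library for Cdc6 and 64 to 215 for Mcm10, counting error adds most to the lowest of the 10 genes. The group of 3 libraries and the unknown number of animals per library limit every comparison at 6 months.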
